A study of Mus musculus with 6 samples.

Results

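The mGluR6 cascade is the set of postsynaptic proteins with which ON bipolar cells of the retina read the glutamate released by photoreceptors. The 10 genes described here (Grm6, Trpm1, Gpr179, Nyx, Lrit3, Gnao1, Rgs7, Rgs11, Gng13 and Pcp2) were taken by their symbol, and all 10 were found among the 32285 genes of the deposited files. The series measured nuclear RNA of single nuclei from retinas of C57BL6/J mice with the genotype WT, aged 3 months (3 libraries) or 18 months (3 libraries). No treated animal is among these libraries, and the labels give no sex, no pooling and no statement that each library is a separate animal, so p-values reflect how libraries vary, technically or otherwise.

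After filtering, 50241 nuclei remained, and the libraries held between 15905689 and 29340705 UMIs, the counted RNA molecules. Classes of nuclei were found by clustering without the 10 genes and without 20 further genes of the pathway, and a class name stands for clusters that were rod bipolar-like, ON cone bipolar-like and so on by their markers. The rod bipolar class held 648 nuclei, the ON cone bipolar class 432 and the OFF cone bipolar class 401, with medians of 1604, 1526 and 1532 UMIs per nucleus. The third 18-month library stood apart: 76.7% of its nuclei fell in clusters that could not be named, against 4.31% to 31.9% in the others, and it gave 41 rod bipolar nuclei, 10 OFF cone bipolar nuclei and 0 ON cone bipolar nuclei. A library with under 20 nuclei of a class was left out of that class, so both cone bipolar classes rest on 3 libraries at 3 months and 2 at 18 months. Replicate 1 of each age was counted with Cell Ranger 7.1.0 and the other 4 libraries with release 7.2.0. Across libraries, 566 nuclei had a barcode that was also found in another library.

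In darkness photoreceptors release glutamate, which keeps mGluR6 active, and the receptor acts through the G protein Go to hold the cation channel TRPM1 closed. When light lowers the glutamate level, the GTPase-activating RGS complexes shut Go off, TRPM1 opens and the ON bipolar cell depolarises, which produces the b-wave of the electroretinogram. Rod bipolar cells and ON cone bipolar cells use this cascade, OFF cone bipolar cells use ionotropic glutamate receptors, and loss of several of the components causes congenital stationary night blindness.

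The 10 genes lie on 7 chromosomes and span from 2.18 kb (Pcp2) to 433 kb (Rgs7) of the mm10 genome in the GENCODE annotation. Grm6 lies at chr11:50850685-50866208 on the plus strand, Trpm1 at chr7:64153835-64269775 on the plus strand, Gpr179 at chr11:97332109-97352077 on the minus strand, and Nyx at chrX:13466110-13489313 on the plus strand. Lrit3 lies at chr3:129787881-129804030 on the minus strand, Gnao1 at chr8:93809966-93969388 on the plus strand and Rgs7 at chr1:175059087-175492500 on the minus strand. Rgs11 (chr17:26202951-26211324) and Gng13 (chr17:25717171-25719406) are on the plus strand of the same chromosome, and Pcp2 (chr8:3623371-3625545) is on the minus strand. Some of these genes overlap others on the opposite strand: Pet100 covers 100% of Pcp2, Arhgdig 57.8% of Rgs11, Chtf18 21.5% of Gng13, the antisense gene Gm12660 8.06% of Grm6 and the antisense gene 4930488L21Rik 2.36% of Gnao1. In rod bipolar nuclei these partners had 52.8, 8.60, 69.3, 106 and 27.0 CPM (UMIs of the gene per 1000000 UMIs of the class in a library). Whether the counting used strand is not given in the sources used here, so for these 5 genes reads of a partner cannot be told apart.

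The promoters of Grm6, Trpm1 and Gpr179, the receptor, the channel and the anchor of the RGS complexes, in which ON and OFF cone bipolar nuclei did not overlap in level, are shown from RefSeq (GRCm38.p6), from 250 bases before to 50 bases after the start, 5′ to 3′ on the gene's strand. Capitals mark TAATCC, the core site bound by the homeodomain protein OTX2 and its relative CRX, and the E-box CANNTG, each searched on both strands, and no match of one overlapped a match of the other. They lie at chr11:50850435-50850734 (plus strand), chr7:64153585-64153884 (plus strand, the first start of Trpm1) and chr11:97352307-97352606 (minus strand).
Grm6: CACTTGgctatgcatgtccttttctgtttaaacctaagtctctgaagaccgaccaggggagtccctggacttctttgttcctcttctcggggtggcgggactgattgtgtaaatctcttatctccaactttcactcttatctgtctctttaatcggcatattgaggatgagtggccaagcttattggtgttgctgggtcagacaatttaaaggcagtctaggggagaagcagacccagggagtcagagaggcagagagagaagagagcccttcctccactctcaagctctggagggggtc
Trpm1: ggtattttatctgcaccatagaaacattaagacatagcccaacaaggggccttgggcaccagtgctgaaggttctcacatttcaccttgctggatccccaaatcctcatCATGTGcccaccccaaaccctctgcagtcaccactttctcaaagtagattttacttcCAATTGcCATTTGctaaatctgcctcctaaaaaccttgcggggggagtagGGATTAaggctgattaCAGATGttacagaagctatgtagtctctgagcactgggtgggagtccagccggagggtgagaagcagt
Gpr179: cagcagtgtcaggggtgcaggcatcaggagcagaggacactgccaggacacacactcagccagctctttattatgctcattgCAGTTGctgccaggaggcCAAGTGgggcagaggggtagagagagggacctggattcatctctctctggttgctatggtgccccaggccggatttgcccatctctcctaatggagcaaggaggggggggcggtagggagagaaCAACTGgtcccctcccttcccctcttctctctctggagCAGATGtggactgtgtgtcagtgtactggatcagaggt
RefSeq promoters were found for 9 of the 10 genes, 14 promoters in all, and none for Rgs11. TAATCC was present in 1 of the 14, that of the first Trpm1 start, where it begins at position -34 from the start, and in 7.06% of all 32851 promoters of the same length. The E-box stood in all 14, against 72.3% of all promoters, and the homeodomain site TAATTA in 1 (the third start of Pcp2), against 5.29%. Trpm1, Gng13 and Pcp2 gave more than 1 window each, and windows of Pcp2 overlap and share a match, so the 14 are not independent. These matches describe the letters in these windows only.

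Grm6 encodes the glutamate receptor mGluR6 itself. Rod bipolar nuclei had 225 CPM, 268 CPM and 213 CPM of Grm6 in the 3-month libraries and 248, 254 and 237 CPM in the 18-month libraries. Their ON cone counterparts had 241, 259 and 183 CPM at 3 months and 218 and 242 CPM at 18 months. The 2 classes overlapped in level, with means of 241 ± 19.96 CPM (SD, n = 6) and 229 ± 29.3 CPM (SD, n = 5). OFF cone bipolar nuclei lay at 26.6 ± 10.7 CPM (SD, n = 5), below both ON classes in every library, and rods at 17.2 ± 7.22 CPM (SD, n = 6), while cones, horizontal, amacrine and ganglion cells and Müller glia had means from 4.03 to 16.2 CPM. The level in ON cone bipolar nuclei was 6.30 to 18.5 times that in OFF cone bipolar nuclei of the same library. OFF cone bipolar nuclei and rods overlapped in their Grm6 level.

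Trpm1 encodes the channel that the cascade closes. In rod bipolar nuclei its level was 4001, 3117 and 2318 CPM at 3 months and 3909, 3162 and 1746 CPM at 18 months. In ON cone bipolar nuclei it was 1677, 1283 and 953 CPM at 3 months and 1283 and 998 CPM at 18 months, and in OFF cone bipolar nuclei 571, 324 and 328 CPM at 3 months and 423 and 561 CPM at 18 months. The 3 bipolar classes did not overlap, and all 5 libraries that held them had the same order. The OFF level, 442 ± 120 CPM (SD, n = 5), was still above that of rods (80.0 ± 40.02 CPM) and horizontal cells (87.6 ± 84.2 CPM, SD, n = 6 in each). ON cone bipolar nuclei had 1.78 to 3.96 times the Trpm1 level of OFF cone bipolar nuclei, a smaller ratio than that of Grm6 in all 5 libraries. Depth differed little between the bipolar classes, and their summed rod markers, RNA of another cell, ranged from 7089 to 16908 CPM in rod bipolar, 7421 to 19089 CPM in ON cone bipolar and 7474 to 19157 CPM in OFF cone bipolar nuclei. Summed rod bipolar markers were 7397 to 13811 CPM in rod bipolar and 694 to 1029 CPM in ON cone bipolar nuclei. In OFF cone bipolar nuclei they were 363 to 940 CPM and in rods 352 to 869 CPM. The part of RNA of other cells in the Trpm1 of OFF nuclei was not tested.

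Gpr179, Nyx and Lrit3 encode proteins that hold the complex in place at the dendritic tips. Gpr179, an orphan receptor that anchors the RGS complexes, had 514, 335 and 315 CPM at 3 months and 538, 298 and 170 CPM at 18 months in rod bipolar nuclei. ON cone bipolar nuclei had 389, 198 and 183 CPM at 3 months and 420 and 174 CPM at 18 months, and OFF cone bipolar nuclei had a mean of 61.2 ± 34.6 CPM (SD, n = 5). In both ON classes the highest Gpr179 values were those of replicate 1 of each age, and the 2 classes overlapped. Outside the bipolar classes, Müller glia had the next level of the 6 larger classes, 46.7 ± 20.5 CPM (SD, n = 6). Among amacrine clusters, the one marked by Chat, the enzyme of acetylcholine synthesis, had 115, 18.7 and 22.1 CPM at 3 months and 115, 39.6 and 34.0 CPM at 18 months, with the same 2 libraries high.

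Nyx encodes nyctalopin, a leucine-rich repeat protein that TRPM1 needs to reach the dendritic tips. It was sparse, with 28 UMIs in all rod bipolar nuclei (19.8 ± 10.2 CPM, SD, n = 6) and 26 in all ON cone bipolar nuclei (34.5 ± 33.0 CPM, SD, n = 5). The ON mean rests on replicate 1 at 3 months, which had 92.0 CPM while the others had 12.2 to 31.1 CPM. In rod bipolar nuclei the 18-month replicate 3 had 0 UMIs of Nyx, and the other 5 libraries had 17.7 to 26.2 CPM. At these counts an order of the 2 ON classes was not detectable.

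Lrit3, a leucine-rich repeat protein of the photoreceptor synapse that nyctalopin and TRPM1 depend on, had a different order of classes. Cones had 182, 153 and 104 CPM at 3 months and 189, 155 and 131 CPM at 18 months, from 476 UMIs. Rod bipolar nuclei had 10.5, 36.1 and 59.7 CPM at 3 months and 10.6, 11.6 and 17.0 CPM at 18 months, from 25 UMIs. Every cone value was above every rod bipolar value, and the cone mean (152 ± 31.6 CPM, SD, n = 6) was 6.28 times the rod bipolar mean (24.2 ± 19.9 CPM). Müller glia (45.2 ± 16.4 CPM) and rods (29.0 ± 11.8 CPM) stood between them, and rods, rod bipolar and both cone bipolar classes did not differ beyond their spread.

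Gnao1 encodes the alpha subunit of Go. Rod bipolar nuclei had 1017, 743 and 554 CPM at 3 months and 1030, 927 and 627 CPM at 18 months. The ON cone class had 587, 355 and 391 CPM at 3 months and 544 and 570 CPM at 18 months, lower than rod bipolar nuclei in each of the 5 libraries. OFF cone bipolar nuclei, with 175, 148 and 214 CPM at 3 months and 259 and 208 CPM at 18 months, did not overlap with the ON class. Their mean of 201 ± 42.0 CPM lay below those of horizontal, amacrine and ganglion cells and Müller glia, which ran from 233 to 267 CPM, and above that of rods (136 ± 47.0 CPM). Its range overlapped with those of amacrine cells and rods, its neighbours in the order.

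Rgs7 and Rgs11 encode the GTPase-activating subunits that end the Go signal. Rgs7 in rod bipolar nuclei was 1940, 2043 and 1440 CPM at 3 months and 2064, 2386 and 2729 CPM at 18 months. In ON cone bipolar nuclei it was 361, 532 and 354 CPM at 3 months and 537 and 610 CPM at 18 months, and in OFF cone bipolar nuclei 409, 482 and 257 CPM at 3 months and 441 and 455 CPM at 18 months. The rod bipolar nuclei stood above the cone bipolar classes and the 6 other larger classes in every library, whereas ON and OFF cone bipolar nuclei overlapped, with a ratio of 0.883 to 1.38. Next to rod bipolar nuclei came horizontal (750 ± 50.2 CPM), ganglion (696 ± 84.0 CPM) and amacrine cells (593 ± 52.8 CPM, SD, n = 6 in each).

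Rgs11 was 115, 196 and 230 CPM at 3 months and 95.6, 203 and 186 CPM at 18 months in rod bipolar nuclei. ON cone bipolar nuclei had 106, 184 and 232 CPM at 3 months and 70.0 and 170 CPM at 18 months, and OFF cone bipolar nuclei 64.9, 213 and 214 CPM at 3 months and 60.5 and 149 CPM at 18 months. All 3 bipolar classes overlapped, with replicate 1 of each age lowest in each of them. Horizontal cells, at 132 ± 64.0 CPM, overlapped with the bipolar classes too, and ganglion cells had 83.2 ± 26.9 CPM (SD, n = 6 in each).

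Gng13 encodes a gamma subunit of the G protein. Rod bipolar nuclei had 73.4, 320 and 392 CPM at 3 months and 103, 473 and 153 CPM at 18 months, and ON cone bipolar nuclei had 127, 307 and 281 CPM at 3 months and 179 and 305 CPM at 18 months. The 2 classes overlapped, and the lowest value of each age and class was that of replicate 1. Rods (134 ± 45.7 CPM) and OFF cone bipolar nuclei (132 ± 97.0 CPM) overlapped with them as well. Pcp2, a small protein that binds the Go alpha subunit, had 430, 1244 and 1517 CPM at 3 months and 372, 1832 and 712 CPM at 18 months in rod bipolar nuclei. The ON cone class had 198, 471 and 513 CPM at 3 months and 163 and 725 CPM at 18 months. Pcp2 was higher in rod bipolar nuclei in all 5 shared libraries, although the ranges of the 2 classes overlapped, and replicate 1 of each age was the lowest of its age in both.

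**Figure D1:**
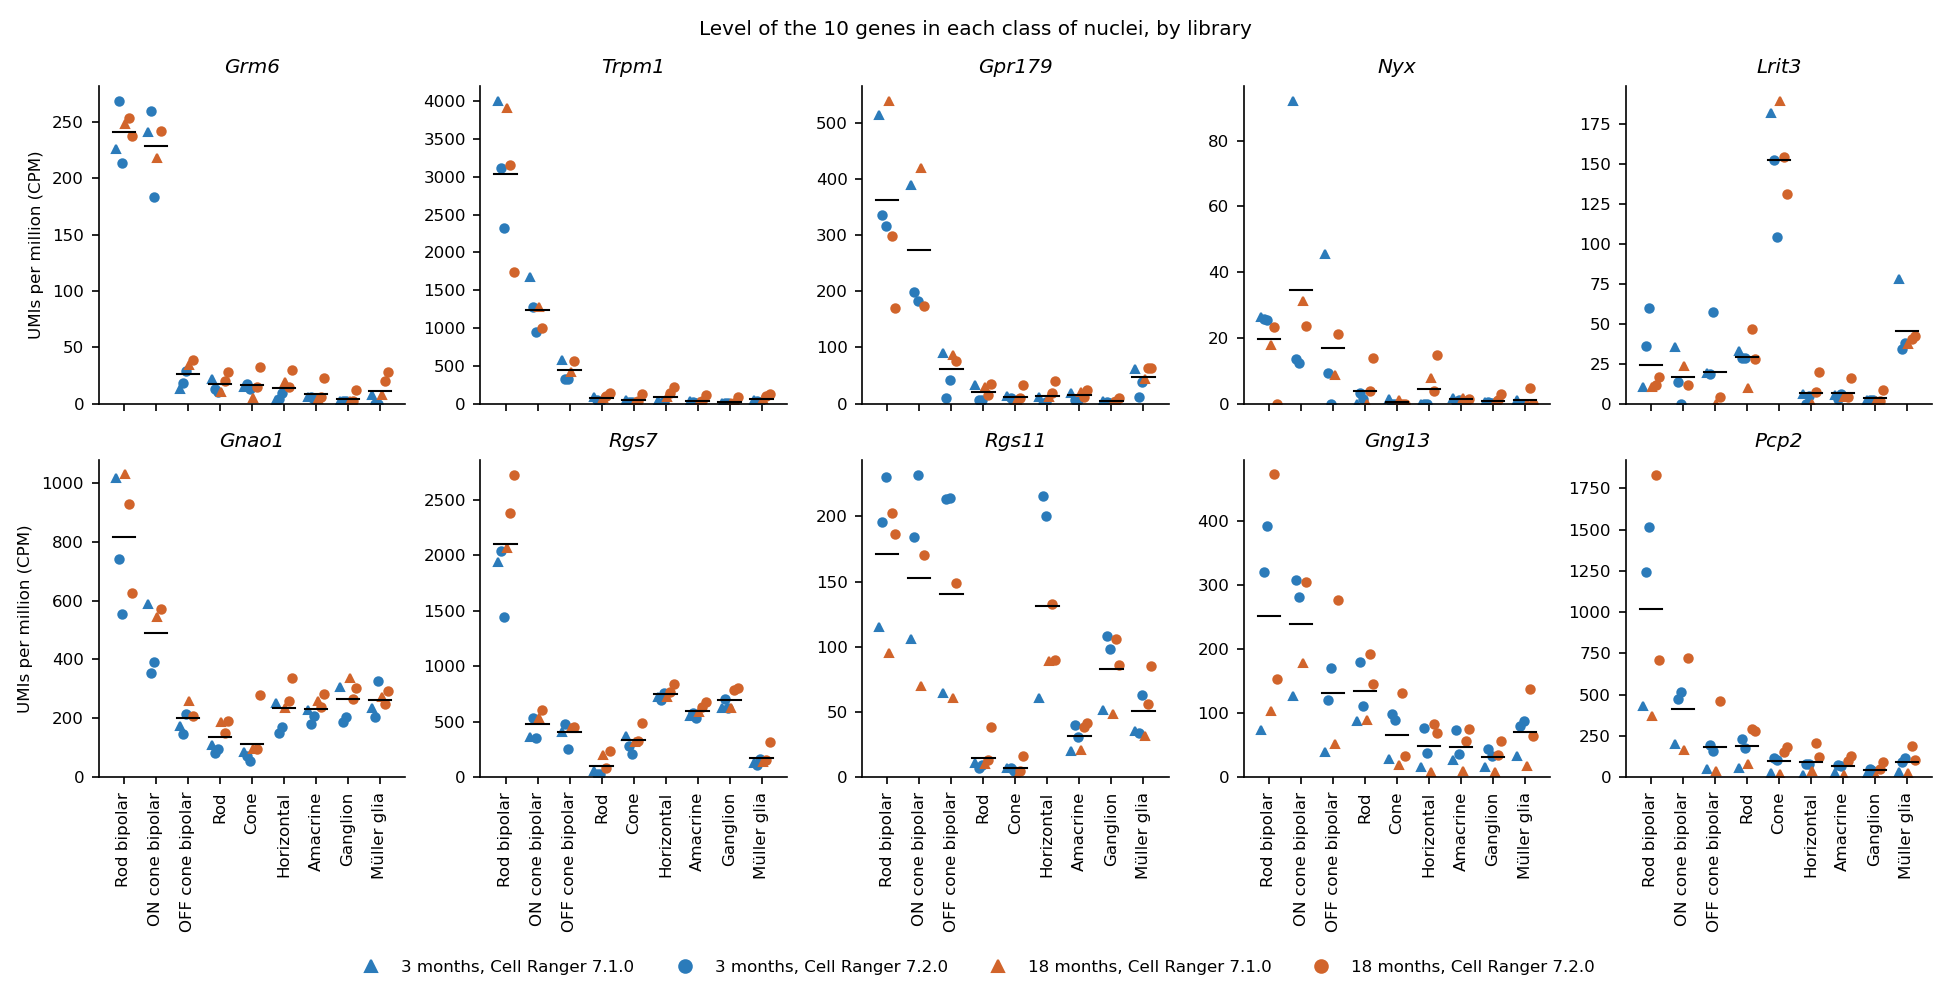
Level of each of the 10 genes in the classes of nuclei (y axis: CPM, a scale of its own per gene, from 0), 1 point per library, coloured by age and shaped by Cell Ranger release. Rod bipolar nuclei have the highest mean for 8 genes, ON cone bipolar nuclei for Nyx and cones for Lrit3, with Grm6, Nyx, Rgs11 and Gng13 highest in another class under some ways of taking nuclei or leaving out a library.

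For some genes the highest class depended on the nuclei taken. With doublet scores ignored Grm6, Rgs11 and Gng13 were highest in ON cone bipolar nuclei and Nyx in rod bipolar nuclei, and with nuclei taken by a marker gate Rgs11 was highest in horizontal cells and Nyx in rod bipolar nuclei. The ON cone bipolar means with doublet scores ignored rest on fewer libraries than the main ones, too few for an age fit. Gng13 was highest in ON cone bipolar nuclei without 3-month replicate 3 or without 18-month replicate 2. Trpm1, Gpr179, Gnao1, Rgs7 and Pcp2 stayed highest in rod bipolar nuclei and Lrit3 in cones in each of these and of the other settings tried for levels.

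Counted per nucleus after thinning to 1000 UMIs, at least 1 UMI of Grm6 was found in 20.3% ± 5.85 of rod bipolar nuclei, 20.7% ± 3.91 of ON cone bipolar nuclei and 2.95% ± 2.85 of OFF cone bipolar nuclei. Rods, which do not use the receptor and had a median of 790 UMIs, gave 2.19% ± 1.10, which differed from the OFF share by less than the spread between libraries. Without thinning the Grm6 shares were 37.3%, 30.7%, 4.72% and 1.68%. Trpm1 was found in 87.9% ± 10.1 of rod bipolar, 61.0% ± 10.6 of ON cone bipolar and 32.4% ± 9.86 of OFF cone bipolar nuclei after thinning, against 5.88% ± 2.70 of rods (93.5%, 67.8%, 42.5% and 7.34% without thinning). The Trpm1 shares of OFF cone bipolar nuclei and rods differed by more than the spread between libraries. Lrit3 was found in 15.2% ± 3.47 of cones and in 2.79% ± 2.54 of rod bipolar nuclei, against 3.00% ± 1.54 of rods (SD over libraries in each; 17.3%, 4.42% and 2.82% without thinning). Thinning left 530 of 648 rod bipolar, 339 ON cone bipolar, 311 OFF cone bipolar, 1380 cone and 3317 rod nuclei.

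For 4 of the 10 genes (Grm6, Trpm1, Gpr179 and Nyx) more UMIs lay in nuclei of unnamed clusters than in all named classes together. Of 2402 Grm6 UMIs in all nuclei, 59.1% were in nuclei of unnamed clusters and 13.03% in rod bipolar nuclei, and of 18696 Trpm1 UMIs 58.5% and 22.5%. The unnamed share was 56.9% for Gpr179, 56.4% for Nyx, 49.1% for Pcp2, 45.1% for Gng13, 42.4% for Lrit3, 36.0% for Gnao1, 31.2% for Rgs7 and 22.7% for Rgs11. Unnamed nuclei were 17158 of all 50241. Their share of the UMIs of all genes was not computed, so these shares do not set the cascade apart from other genes. One unnamed cluster of 1042 deep nuclei, nearly all from the 2 libraries of release 7.1.0, carried markers of rod bipolar cells together with leading genes shared with another class. It held 20.1% of the Grm6 and 29.2% of the Trpm1 UMIs, at 54.7 and 619 CPM, well under the rod bipolar levels. The cluster that made up 73.0% of the third 18-month library had 32.2 CPM of Grm6 and 228 CPM of Trpm1. Levels and tests below concern the named nuclei only.

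Rod bipolar and ON cone bipolar nuclei were compared within libraries, a contrast that the choice of genes does not fix. Of the 8 genes of the cascade with enough counts, 5 were higher in rod bipolar nuclei and 0 lower by edgeR's quasi-likelihood test with library as a block (Benjamini-Hochberg adjusted p at or below 0.05). Among all 3709 genes tested, 17.2% passed in either direction, 8.28% higher and 8.95% lower. These include genes used for clustering, which the 10 genes were not. The median log2 difference was 0.69 for the 8 genes and -0.02 for all genes. Nyx and Lrit3 were below the count filter.

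The RGS subunit Rgs7 differed most, with a log2 difference of 2.04 ± 0.12 (SE), a 4.12-fold higher level (95% interval 3.46 to 4.90, adjusted p = 1.08e-12), and the library ratios ran from 3.84 to 5.37. The channel Trpm1 followed with 1.42 ± 0.11 (2.67-fold, 2.28 to 3.12, adjusted p = 1.31e-10), and its ratio was 2.39 to 3.17 in the 5 libraries. Pcp2 was higher by 1.33 ± 0.13 (2.52-fold, 2.09 to 3.02, adjusted p = 6.88e-09), at ratios of 2.17 to 2.96. The steadiness of the Pcp2 ratio contrasts with its levels, which ranged widely between libraries in each class.

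Gnao1 was higher by 0.80 ± 0.13 on the log2 scale (1.74-fold, 1.46 to 2.09, adjusted p = 1.81e-05), with ratios of 1.42 to 2.09. Gpr179 was higher by 0.58 ± 0.15 (1.49-fold, adjusted p = 0.0057), with ratios of 1.28 to 1.72 in 5 of 5 libraries. These 2 calls depended on how nuclei were taken: with doublet scores ignored the log2 differences were 0.61 for Gnao1 and 0.48 for Gpr179 (adjusted p = 0.235 and 0.502), with nuclei taken by a marker gate in place of clusters 0.43 and 0.72 (adjusted p = 0.223 and 0.233), and DESeq2 did not pass Gpr179 either (adjusted p = 0.0666). Rgs7, Trpm1 and Pcp2 passed in each of these, but the log2 difference of Rgs7 was 1.10 with the marker gate and 2.78 with doublet scores ignored. With doublet scores ignored, too few libraries kept enough ON cone bipolar nuclei for an age fit. That setting thus compares fewer libraries than the main one, and its lost calls cannot be told apart from this.

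The receptor itself did not pass. Grm6 differed by 0.07 on the log2 scale with a 95% interval of -0.25 to 0.39 (adjusted p = 0.869), and 4 of 5 libraries were higher in rod bipolar nuclei, at ratios of 0.937 to 1.16. For Rgs11 the difference was 0.16 (-0.21 to 0.53, adjusted p = 0.686) and for Gng13 0.11 (-0.29 to 0.51, adjusted p = 0.826). The intervals of these 3 genes leave out a difference as large as that of Trpm1, Rgs7 or Pcp2, but not a small one.

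**Figure D2:**
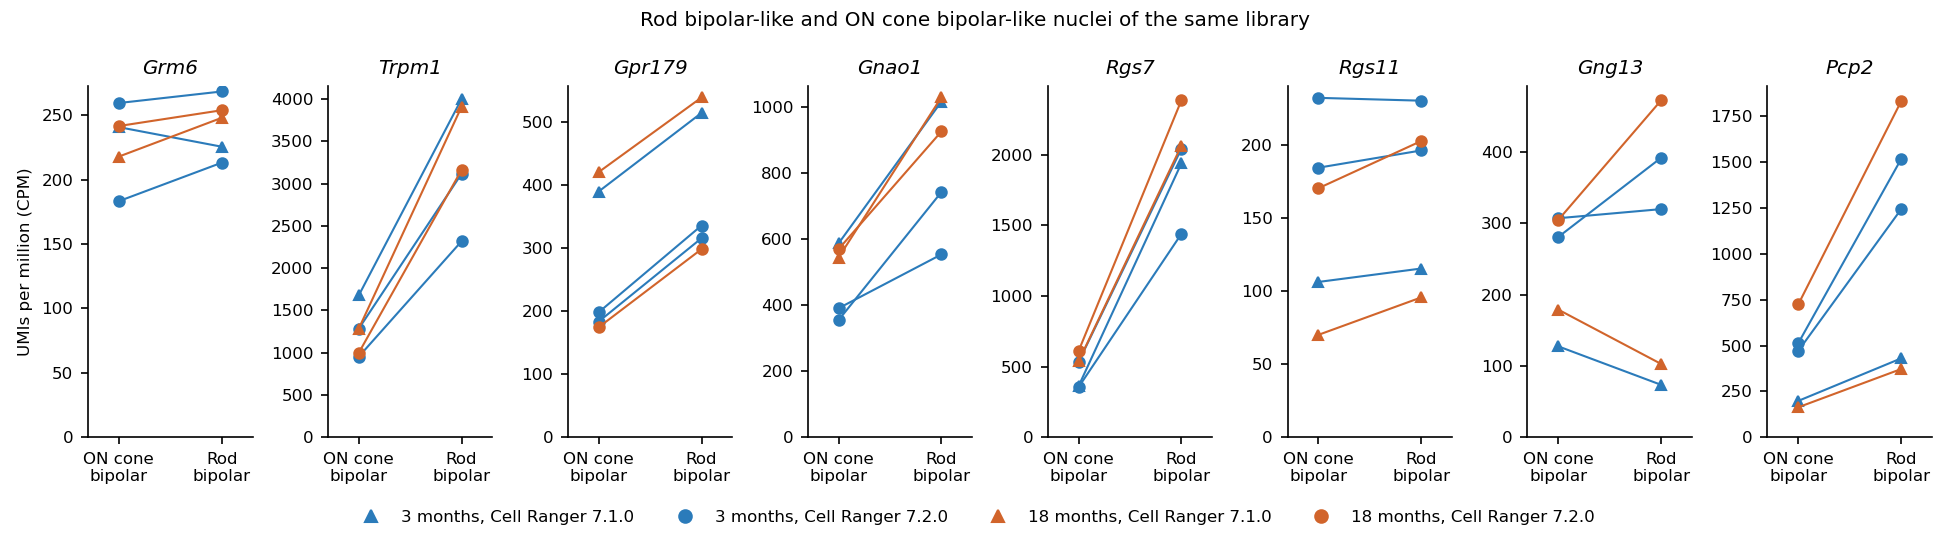
Level (y axis: CPM, from 0) in ON cone bipolar and rod bipolar nuclei, with a line joining the 2 values of each of the 5 libraries that held both. The lines of Rgs7, Trpm1, Pcp2, Gnao1 and Gpr179 climb in 5 of 5 libraries, those of Grm6 in 4 of 5.

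Of the 7 further genes of the G protein and RGS complex, 6 were tested, 0 were higher and 1 lower. Gnb3, the beta subunit of Go in these cells, had means of 691 CPM in rod bipolar and 734 CPM in ON cone bipolar nuclei (log2 difference -0.21, adjusted p = 0.425), and was at 165 CPM in OFF cone bipolar nuclei. Gnb5, the obligate partner of the RGS subunits, had a log2 difference of 0.18 (adjusted p = 0.548). The one lower was Rgs7bp, the membrane anchor of RGS complexes, at -0.69 ± 0.18 (SE, adjusted p = 0.00502), from means of 118 CPM in rod bipolar and 185 CPM in ON cone bipolar nuclei. So the 4.12-fold difference in Rgs7 went with no difference past the threshold in Gnb5 and with the opposite sign in Rgs7bp. Rgs7bp was not called by DESeq2, with the marker gate or with doublet scores ignored.

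Of the 9 genes for matrix, adhesion and presynaptic partners 5 were tested, and 1 was higher: Egflam, the matrix protein pikachurin, with 138 against 65.8 CPM and a log2 difference of 0.91 ± 0.25 (adjusted p = 0.00933). That call was lost with DESeq2, at the finer clustering, with the marker gate and without the first 3-month library. Among the 4 paralogs, 3 were tested and 1 was lower: Grm7, another group III metabotropic glutamate receptor, had means of 251 CPM in rod bipolar, 678 CPM in ON cone bipolar and 896 CPM in OFF cone bipolar nuclei, a log2 difference between the first pair of -1.77 ± 0.18 (SE, adjusted p = 1.58e-08). Its relative Grm8 had 401 and 199 CPM and did not pass (0.55, adjusted p = 0.115).

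The cone bipolar nuclei fell into subclusters, divided into ON and OFF by markers such as Isl1, a transcription factor of ON types (305 CPM in ON, 33.1 CPM in OFF), and Grik1, a kainate receptor of OFF types (153 and 5131 CPM). The summed ON marker list overlapped between the sides (1221 to 2474 CPM in ON and 1224 to 1961 CPM in OFF libraries), so the division rests mainly on Isl1 and the OFF list. Values per subcluster are sums over all libraries with an exact Poisson 95% interval, which covers counting error only. Grm6 was 148 to 314 CPM in the ON subclusters and 21.9 to 41.3 CPM in the OFF subclusters, so its values separated the sides. Intervals did overlap for ON subcluster 10 (67.6 to 281 CPM, 9 UMIs) with OFF subclusters 7 (11.2 to 106 CPM, 4 UMIs) and 8 (6.67 to 94.5 CPM, 3 UMIs).

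Trpm1 varied among the ON subclusters. The one marked by Cck had 2094 CPM (1892 to 2311) and the one marked by Cpne9 1716 CPM (1376 to 2114). Lower levels were found in those marked by Sox6, with 1076 CPM (946 to 1220), and by Igfn1, with 997 CPM (845 to 1168). A pair of small ones, numbers 9 and 10, had 243 CPM (142 to 390) and 394 CPM (253 to 587). These last intervals overlap with those of OFF subclusters.

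On the OFF side 1 subcluster, marked by Neto1, Nxph1 and Tacr3, stood out with 975 CPM of Trpm1 (842 to 1124). By library it had 1090, 778 and 380 CPM at 3 months and 1226 and 1062 CPM at 18 months. The other OFF subclusters had 172 to 495 CPM. The Trpm1 level of the Neto1 subcluster thus crossed the ON and OFF division that the Grm6 values kept. Rgs7 varied on the ON side from 712 CPM in the subcluster marked by Sox6 and 221 CPM in that marked by Igfn1 to 49.3 CPM (10.2 to 144, 3 UMIs) in number 10.

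**Figure D3:**
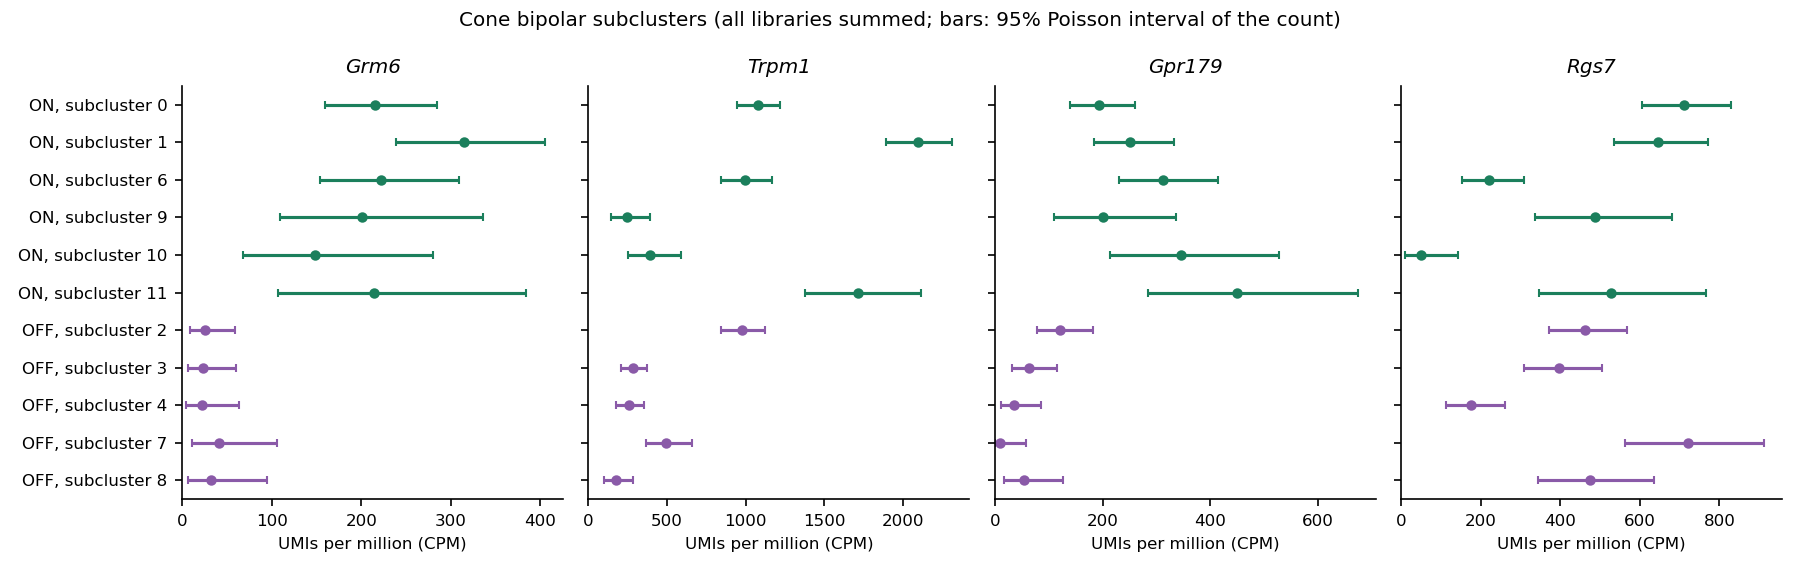
Levels in the ON and OFF cone bipolar subclusters, all libraries summed (x axis: CPM; bars: 95% Poisson interval of the count). Grm6 values separate the 2 sides, with 148 to 314 CPM against 21.9 to 41.3 CPM. Its intervals overlap for ON subcluster 10 with OFF subclusters 7 and 8. The Trpm1 level of OFF subcluster 2 (975 CPM) reaches into the range of the ON subclusters.

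Age was compared within each bipolar class by edgeR's quasi-likelihood test over libraries. In rod bipolar nuclei 0 of the 8 genes tested passed, and over all 4086 genes 0% passed, with 70 at an unadjusted p under 0.05 and 0 called by DESeq2. Estimates of the log2 difference (18 minus 3 months) ran from -0.18 for Rgs11 and Gpr179 to 0.37 for Rgs7, each with an adjusted p of 0.9999. For the receptor Grm6 it was 0.04, with a 95% interval of -0.59 to 0.68, and for the channel Trpm1 -0.11 (-0.92 to 0.70). Gnao1 had 0.15 (-0.60 to 0.90), Gng13 -0.01 (-1.50 to 1.47) and Pcp2 -0.11 (-1.44 to 1.22). Counts for this comparison were also simulated with the same spread between libraries for every gene (a dispersion of 0.05). There 81 of 100 genes with a log2 change of 2 and 31 of 100 with a change of 1 were recovered, so a moderate change could be missed. Gng13 and Pcp2 varied more than this between libraries, and recovery at such a spread was not measured.

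Rgs7 was the only one of the 10 genes whose normalised levels did not overlap between ages in rod bipolar nuclei, at 1324 to 2142 CPM at 3 months and 2144 to 2617 CPM at 18 months, with a log2 difference of 0.37 (-0.25 to 0.98). Within the release pairs its log2 ratio was 0.10 in release 7.1.0 and 0.54 in release 7.2.0. The gap between the ages is small beside the spread within each. How many of all tested genes had ages apart in this way was not computed.

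ON cone bipolar nuclei gave 0 of 8 genes past the threshold, and 0% of 3698 genes overall (69 at an unadjusted p under 0.05, 0 by DESeq2). The log2 differences were 0.01 for Grm6, -0.20 for Trpm1, 0.15 for Gpr179, 0.33 for Gnao1, 0.46 for Rgs7, -0.42 for Rgs11, 0.07 for Gng13 and 0.24 for Pcp2, each with an adjusted p of 0.998. In OFF cone bipolar nuclei 0 of 6 passed, again 0% of 2880 genes (68 at an unadjusted p under 0.05, 1 by DESeq2, not of the cascade). There Gnao1 (152 to 191 against 231 to 252 normalised CPM), Grm6 (13.2 to 25.5 against 33.6 to 42.4) and Lrit3 (19.0 to 50.9 against 0 to 4.71) had ages that did not overlap, over 3 and 2 libraries, and Grm6 and Lrit3 lay below the count filter. The same share over all genes was not computed, so this non-overlap is not a result about the cascade. The difference of the age effect between rod bipolar and ON cone bipolar nuclei was tested directly: 0 of 8 genes passed, and 0% of 5255 genes overall (207 at an unadjusted p under 0.05), with estimates from -0.20 for Rgs7 to 0.34 for Trpm1 and an adjusted p of 0.995.

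Of the 20 further pathway genes, 0 passed for age in any of the 3 bipolar classes with age as the only term. Rgs9bp, an anchor of RGS complexes, had a log2 difference of -0.85 in rod bipolar and -1.06 in ON cone bipolar nuclei (unadjusted p = 0.0486 and 0.0353). Rgs6, an RGS subunit related to Rgs7, had 14.2, 13.7 and 12.2 CPM in ON cone bipolar nuclei at 3 months and 77.8 and 139 CPM at 18 months, which do not overlap. The 3-month values are near the floor: the smallest library sum of this class held 81881 UMIs, so each rests on very few UMIs of Rgs6. Its log2 difference of 2.97 ± 0.71 (SE) did not pass in edgeR with age alone (adjusted p = 0.998). It passed with Cell Ranger release as a term (adjusted p = 0.0209) and with the replicate number as a block (adjusted p = 0.00595). In this class replicate 3 had no nuclei at 18 months, so the block rests on the other replicate numbers. Both terms also raised the number of all genes called in this class, as given in the closing section.

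**Figure D4:**
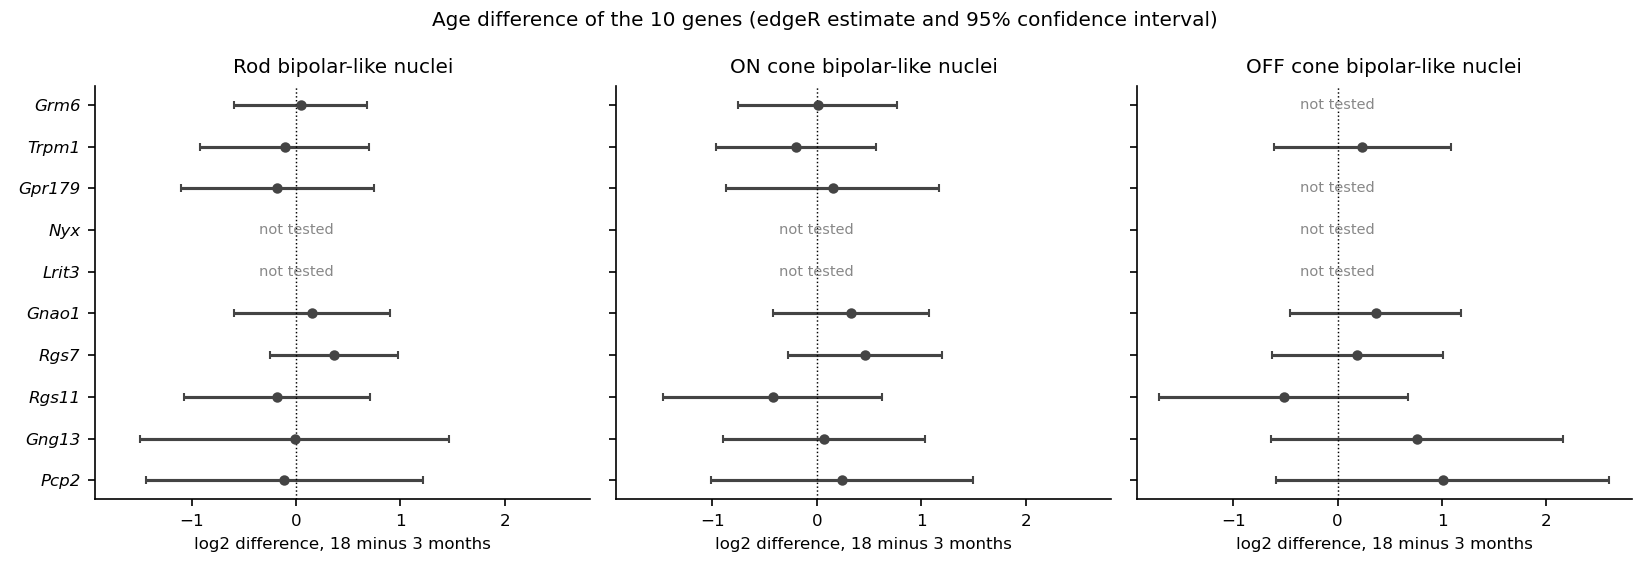
Log2 difference between 18 and 3 months (x axis) of each gene tested in rod bipolar, ON cone bipolar and OFF cone bipolar nuclei, as the edgeR estimate with its 95% confidence interval. Every interval includes 0.

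Among these genes, the libraries of the 2 Cell Ranger releases differed more than the ages did. In rod bipolar nuclei 6 of the 8 genes had normalised levels that did not overlap between releases: Pcp2, Gng13 and Rgs11 were lower and Trpm1, Gnao1 and Gpr179 higher in the 2 libraries of release 7.1.0. The mean of the 7.2.0 libraries was 3.70 times that of the 7.1.0 libraries for Gng13, 3.22 times for Pcp2 and 1.84 times for Rgs11, against 0.512 times for Gpr179 and 0.64 times for Trpm1. In ON cone bipolar nuclei the same held for 4 of 8, with Pcp2, Gng13 and Rgs11 lower and Gpr179 higher. The 3 lower genes are the 3 shortest of the cascade. The share of all tested genes without overlap between releases was not computed, so these counts do not set the cascade apart from other genes. Each age holds 1 library of release 7.1.0, so this split does not follow age, and release and anything else those 2 libraries share cannot be told apart.

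Outside the bipolar classes, age was tested for the 10 genes in rods, cones, horizontal, amacrine and ganglion cells and Müller glia. Of the 60 pairs of gene and class 47 had enough counts, 1 passed, 6 had an unadjusted p under 0.05 and 40 had an estimate above 0. Of those 6 pairs 4 were in rods, where 2744 of all 10671 genes had an unadjusted p under 0.05. Müller glia and horizontal cells had 1 each, and there the same held for 128 of 6644 and 310 of 5044 genes. The share of all genes above 0 was not computed, and the median log2 difference of all genes ran from -0.03 to 0.03 over these classes. The classes share their libraries, so the pairs are not independent. The one that passed was Rgs7 in rods, where 4.08% of 10671 genes passed, 3.19% higher and 0.89% lower. Its normalised level was 51.8, 40.6 and 28.2 CPM at 3 months and 160, 83.4 and 210 CPM at 18 months, from 5, 95 and 51 UMIs and 20, 391 and 67 UMIs. The ages did not overlap, and the log2 difference was 2.08 ± 0.39 (SE, edgeR adjusted p = 0.018). It was 1.63 within release 7.1.0 and 2.09 within release 7.2.0.

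That call did not hold under the finer clustering (1.99, adjusted p = 0.144), the marker gate (0.99, adjusted p = 0.881), a mitochondrial limit of 10% (1.47, adjusted p = 0.642), without 3-month replicate 2 (2.23, adjusted p = 0.157) or without 3-month replicate 3 (1.92, adjusted p = 0.168), with the same sign in each. Other contents of these rod nuclei moved with age too: their 12 rod markers summed to 59339 to 70069 CPM at 3 months and 23459 to 37315 CPM at 18 months, and the 7 rod bipolar markers to 352 to 624 CPM and 701 to 869 CPM. The rod class joined clusters 1, 3 and 16, whose mix differed between libraries. Cluster 1 gave 4867 of the 5532 rods of 18-month replicate 2 and 796 of the 3047 of 3-month replicate 2. Cluster 16 gave 612 and 203 rods in 3-month replicates 2 and 3, 9 in 18-month replicate 2 and none elsewhere. With all libraries summed, Rgs7 was at 74.7, 58.8 and 9.20 CPM in clusters 1, 3 and 16. The part of these markers and of the cluster mix in the Rgs7 difference was not tested. Trpm1 in rods had a log2 difference of 1.16 ± 0.36 that did not pass (adjusted p = 0.0716), and passed with release as a term (adjusted p = 0.0142), with the replicate block (adjusted p = 0.00778) and without 3-month replicate 1 (adjusted p = 0.0178).

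In rods, 5 further pathway genes were higher at 18 months and 1 lower, by adjusted p values of 0.0232 to 0.0392 in the same edgeR fit. The log2 differences were 2.49 for Rgs6, 1.86 for Grm7, 1.65 for the channel gene Trpm3, 1.53 for the orphan receptor Gpr158 and 1.36 for Grm8, and the synaptic leucine-rich repeat gene Lrit1 had -1.26. All 6 calls were lost at the finer clustering, with the marker gate, with the 10% mitochondrial limit, with doublet scores ignored and without 3-month replicate 2 or 3, with the sign kept in each. With Rgs7, the genes that were higher are the 6 longest of the 30 genes of the cascade and pathway, from 433 to 922 kb. The other 21 tested genes were at most 192 kb long and had a median log2 difference of 0.04, from -1.26 to 1.23. The relation to length was noticed in these values and is given as a description of 27 genes. The part of the cluster mix of the rod class in these differences was not tested.

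**Figure D5:**
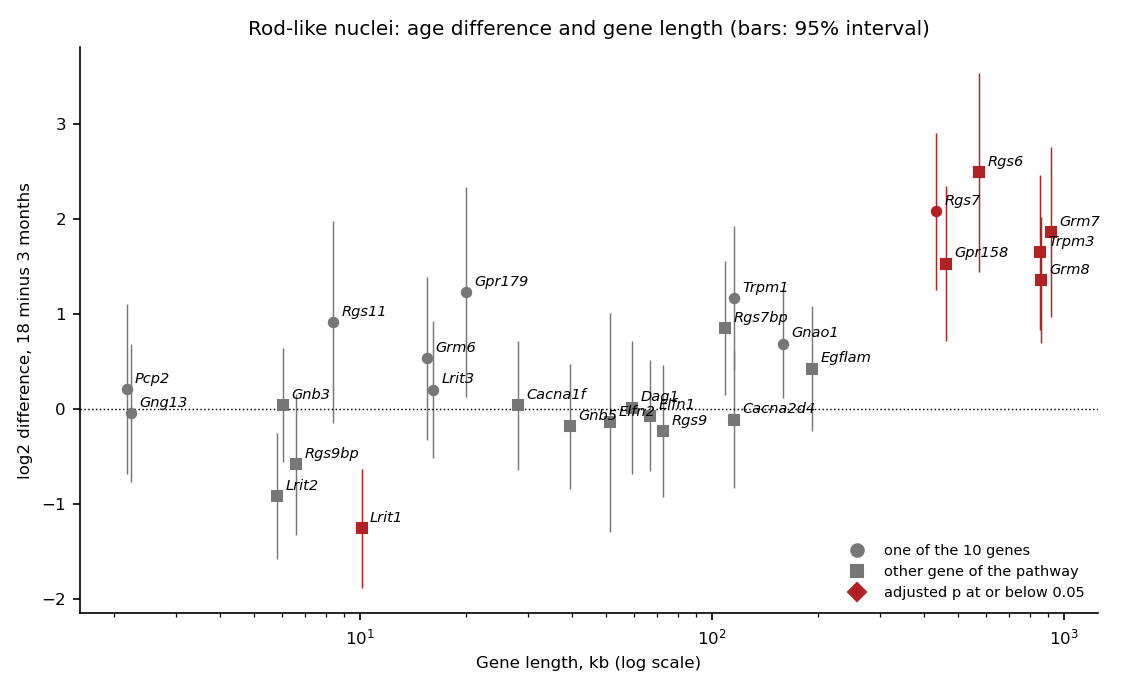
Log2 difference between 18 and 3 months in rods (y axis, bars: 95% interval) against gene length (x axis, kb, log scale) for the 27 tested genes of the cascade and pathway. The 6 longest genes are all higher at 18 months, while the others lie on both sides of 0.

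Trpm1 in horizontal cells had normalised levels of 39.3, 10.3 and 17.3 CPM at 3 months and 88.8, 142 and 192 CPM at 18 months, from 13, 4 and 7 UMIs and 24, 38 and 45 UMIs. The ages did not overlap. The log2 difference of 2.69 ± 0.49 did not pass in edgeR (adjusted p = 0.216), and it passed in DESeq2 (adjusted p = 0.000828), without the count filter (adjusted p = 9.37e-08) and without 18-month replicate 1 (adjusted p = 0.0210). In the third 18-month library the unnormalised level of Trpm1 was also highest in cones (131 CPM), amacrine cells (114 CPM), ganglion cells (83.4 CPM) and Müller glia (128 CPM), so part of the pattern was shared by classes of that library. The 7 rod bipolar markers summed in horizontal cells to 229, 160 and 122 CPM at 3 months and 407, 246 and 757 CPM at 18 months, and their part in the Trpm1 difference was not tested. The horizontal class of the third 18-month library also differed in its own markers. They summed to 3310 CPM there and to 9336 to 11762 CPM in the other libraries. The part of this in the Trpm1 difference was not tested either.

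Over the mean levels in 13 classes, the genes whose pattern was most like that of Grm6 among 7463 compared were Gpr179 (Pearson r = 0.948), Chtf18 (0.938), Fam135b (0.904), Atp2b1 (0.896) and Igfn1 (0.896). Gpr179 is a member of the cascade, and Chtf18 overlaps Gng13 on the opposite strand. Nearest to Trpm1 were Qpct (0.915), Pcp2 (0.912), Gabrr1 (0.907), Mypn (0.905) and Gabrr2 (0.902), of which Pcp2 belongs to the cascade and Gabrr1 and Gabrr2 encode GABA receptor subunits. Trpm1 ranked only 25 in likeness to Grm6 (r = 0.840). These correlations on the log2(CPM + 10) scale describe 13 classes that share their libraries and carry no test.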

How the data were processed

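Single-nucleus RNA was sequenced from 6 retina libraries with the 10x Genomics 3′ v3.1 kit, per the labels' protocols. The authors deposited raw UMI counts per gene and barcode, made with Cell Ranger 7.1.0 for replicate 1 of each age and 7.2.0 for the others, per the file headers, and the submitters' processing notes name the build mm10 and Seurat. The authors' own cell type names were not used here.

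Of 62893 barcodes, 55230 had at least 300 genes and at most 5% mitochondrial UMIs, and 4989 with the highest simulated-doublet scores were removed (0.8% per 1000 nuclei). Nuclei were clustered without the 10 genes, the 20 pathway genes and mitochondrial genes (2000 variable genes, 30 principal components, Leiden resolution 1, leidenalg 0.10.2). Of 35 clusters 29 were named from listed markers, by numerical rules set after looking at the clusters, and 17158 nuclei stayed unnamed. The members and lists were chosen with earlier results of these data known.

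Counts were summed per library and class, and tested with the quasi-likelihood test of edgeR 4.0.16 (TMM, filterByExpr, Benjamini-Hochberg adjustment over all genes tested, threshold 0.05). Age was the only term, except that library was a block between rod bipolar and ON cone bipolar nuclei. All 10 genes are named, the pathway genes come from the listed groups, and the 5 genes most like Grm6 and Trpm1 by Pearson r over classes are given. CPM are unnormalised unless called normalised (with TMM factors). Each script with a test was tested on simulated data. Alternatives were DESeq2 1.42.0, its size factors in edgeR, no count filter, Leiden resolution 2, a 10% mitochondrial limit, no doublet removal, a marker gate (at least 3 UMIs of a class's markers), release as a term, a replicate block and leaving out each library.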

Additional observations from a re-analysis of the deposited data

How the results depend on the processing

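Of the log2 differences of single genes recomputed under the alternatives, 497 kept their direction and side of the threshold, 60 lost a call, 8 gained one and 53 changed sign, and no difference that changed sign had passed. Of the class levels, 182 moved by less than the spread between libraries and 18 by more. Low counts limit Nyx and Lrit3 in bipolar nuclei, and both cone bipolar classes have 2 libraries at 18 months.

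The number of genes called for age in ON cone bipolar nuclei rose from 0 to 3 with release as a term and to 33 with the replicate block, and was 0 to 2 when each library was left out. In OFF cone bipolar nuclei it was 2 with the release term, 1 with DESeq2, 2 without the count filter, 34 with the replicate block and 0 to 4 without single libraries. For the difference of the age effect between the ON classes it was 1 without the count filter and 0 to 3 without single libraries. Pairs of gene and other class called numbered 2 with the release term, with DESeq2 and without the count filter, 3 with the replicate block (Rgs7, Trpm1 and Gnao1 in rods), 0 with Leiden resolution 2, the marker gate or the 10% mitochondrial limit, and 0 to 2 without single libraries. Between rod bipolar and ON cone bipolar nuclei, 249 genes and 3 of the cascade were called with the marker gate, and 345 genes and 3 of the cascade without doublet removal. The cause of these changes was not tested. Deviations of same-numbered libraries correlated at 0.581, 0.342 and 0.034 in rod bipolar nuclei and at 0.175, 0.282 and 0.027 in rods, and the third pair was also under 0.1 in cones, horizontal and amacrine cells and Müller glia, so libraries with 1 number were not treated as pairs there. In ganglion cells all 3 pairs were above 0.1 (0.648, 0.379 and 0.187). Libraries with unlike numbers also passed 0.1 in this class. Replicate 3 of the younger age gave 0.382 with replicate 2 of the older age. Replicate 2 of the younger age gave 0.312 with replicate 3 of the older age. The other unlike pairs, each with a replicate 1, ran from -0.591 to -0.309. Values above 0.1 thus do not show that libraries with 1 number are pairs. In ganglion cells the block called none of the 9 genes tested (adjusted p of 0.761 to 0.931). The cone bipolar classes have 2 pairs (0.562 and 0.316 in ON, 0.590 and 0.313 in OFF), too few to tell. Age in ON and OFF cone bipolar nuclei and the difference of the age effect gave no value without doublet removal.

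Changes of sign were as follows, on the log2 scale. For age in rod bipolar nuclei, Gng13 was 0.12 with the release term, 0.16 at Leiden resolution 2, 0.30 with the marker gate, 0.021 without doublet removal, 0.067 without the count filter and 0.037 with the replicate block. With the marker gate Pcp2 was 0.22, Rgs11 0.053 and Trpm1 0.089. Gnao1 was -0.011 with the 10% mitochondrial limit, and Grm6 -0.021 without doublet removal. In ON cone bipolar nuclei Gpr179 was -0.012 with the release term and -0.020 with the replicate block, Gng13 -0.031 with the 10% mitochondrial limit, and Grm6 -0.0062 with DESeq2, -0.0076 with its size factors, -0.030 with the 10% mitochondrial limit and -0.12 with the replicate block. In OFF cone bipolar nuclei Rgs11 was 0.092 with the marker gate and Rgs7 -0.020 with the replicate block. Between the ON classes Rgs11 was -0.26 without doublet removal, and the difference of the age effect for Trpm1 was -0.056 with the marker gate.

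Leaving out each library in turn, the age estimates in rod bipolar nuclei ran from -0.023 to 0.16 for Grm6, -0.37 to 0.18 for Trpm1, -0.67 to 0.12 for Gpr179, -0.039 to 0.43 for Gnao1, -0.53 to 0.13 for Rgs11, -1.14 to 0.40 for Gng13 and -1.06 to 0.29 for Pcp2. In ON cone bipolar nuclei they ran from -0.12 to 0.12 for Grm6, -0.39 to 0.043 for Trpm1, -0.53 to 0.67 for Gpr179, -1.28 to 0.059 for Rgs11, -0.41 to 0.42 for Gng13 and -1.25 to 0.96 for Pcp2, and in OFF cone bipolar nuclei from -0.026 to 0.39 for Rgs7, -0.96 to 1.44 for Gng13 and -1.87 to 1.84 for Pcp2. The difference of Gng13 between the ON classes ran from -0.15 to 0.29. A lone 18-month library left in a cone bipolar class was assumed to vary like the others.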
